A study of Mus musculus with 4 samples.

Results

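The genes described here encode the matrix metalloproteinases (MMPs), the ADAM and ADAMTS proteases, the ADAMTS-like proteins and the tissue inhibitors of metalloproteinases (TIMPs). They were chosen by a rule on gene symbols, set with earlier results of these data known, from probe sets annotated with exactly 1 gene. A gene read by several probe sets was given the values of the brightest, by its mean across the 4 arrays. This gave 33 genes, read by 52 probe sets, of 10926 genes in all: 8 MMPs, 3 TIMPs, 11 ADAMs, 7 ADAMTS proteases and 4 ADAMTS-like genes. RNA came from wild type mouse brown adipocytes, differentiated for 6 days from preadipocytes that expressed either an vector or Blnc1 (brown fat lncRNA 1, a long noncoding transcript), with 2 arrays in each group. The labels call the replicates biological without saying whether they were separate cultures or transductions, so p-values measure only the spread between these arrays. The culture was read as a whole, and fewer cells of a type cannot be told apart from less RNA per cell.

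Metalloproteinases are zinc enzymes made as inactive precursors. The secreted MMPs cut collagens and other matrix proteins, the membrane-anchored ADAMs release the outer parts of membrane proteins, and the secreted ADAMTS enzymes cut proteoglycans and process procollagens; the ADAMTS-like proteins resemble the latter without their protease domain. TIMPs bind and block the active site, and TIMP2 has a further role, since it joins the membrane enzyme MMP14 to the precursor of the gelatinase MMP2, which MMP14 then activates. In fat, matrix turnover by these enzymes accompanies the conversion of fibroblast-like preadipocytes into round, lipid-filled cells.

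The labels were checked on the expressed transcript and on cell markers. C730029A08Rik is a symbol under which Blnc1 is annotated. Its brighter probe set read 8.08 and 8.14 (log2) in the vector arrays and 12.73 and 12.75 in the Blnc1 arrays. Its dimmer one differed by -0.31 and did not pass the test. Paqr9, the other symbol set for this check, differed by -0.50 with both Blnc1 arrays lower (limma adjusted p = 0.0905). Among general adipocyte genes Adipoq, Pparg, Fabp4 and Lipe lay above the median probe set (5.997) on every array, while the brown fat marker Ucp1 read 5.01 and 5.01 with vector and 7.97 and 8.05 with Blnc1. The measured markers of macrophages (3), neutrophils (2), endothelium (1) and skeletal muscle (2) all had means below that median, and none passed the test. In all, 219 of 23599 probe sets passed a limma adjusted p of 0.05 (0.928%), 147 of them higher and 72 lower with Blnc1, or 176 and 135 after centring each array on its median. Some technical measures also separated the groups. All 18 hybridisation control probe sets were lower with Blnc1 (median difference -0.27), and the 3' minus 5' difference was lower by -0.13 for Gapdh and by -0.17 for Actb. Sex-linked genes, which are not technical measures, differed too (log2, Blnc1 minus vector). The Y-linked Eif2s3y, Uty and Kdm5d were lower by -1.18, -1.02 and -0.87, with limma adjusted p of 0.0120, 0.0341 and 0.0289. Each was a larger difference than that of any member. The brightest Xist probe set was higher by 0.55 (limma adjusted p = 0.0479), and its dimmer ones, higher by 0.53 and 0.68, missed the threshold. Whether the groups differed in the sex of their cells was not tested. The part of these differences in the results below was not tested.

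Start-site sequences are shown for 4 members, chosen after the values and windows were seen because they differ in these motifs: Timp2, the member that passed the test, Mmp14, the membrane enzyme it works with, Timp1, the other inhibitor with a large difference, and the proteoglycan-cutting Adamts1. Each line gives the 250 bases before the annotated start from RefSeq (GRCm38.p6), 5′ to 3′ on the gene's strand, with matches to the searched motifs in capitals. The windows lie at chr11:118355412-118355661 (minus strand) for Timp2, chr14:54431348-54431597 (plus) for Mmp14, chrX:20869916-20870165 (plus) for Timp1 and chr16:85803114-85803363 (minus) for Adamts1.
Timp2: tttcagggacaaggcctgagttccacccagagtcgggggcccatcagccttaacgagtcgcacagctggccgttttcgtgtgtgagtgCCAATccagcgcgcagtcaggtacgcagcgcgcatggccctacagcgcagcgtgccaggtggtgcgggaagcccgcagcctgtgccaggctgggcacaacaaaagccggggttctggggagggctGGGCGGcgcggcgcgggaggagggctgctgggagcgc
Mmp14: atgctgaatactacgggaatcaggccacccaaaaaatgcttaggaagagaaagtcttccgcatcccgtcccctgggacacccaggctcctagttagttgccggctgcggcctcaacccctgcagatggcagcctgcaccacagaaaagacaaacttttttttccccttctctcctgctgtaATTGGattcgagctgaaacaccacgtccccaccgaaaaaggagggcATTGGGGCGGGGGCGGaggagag
Timp1: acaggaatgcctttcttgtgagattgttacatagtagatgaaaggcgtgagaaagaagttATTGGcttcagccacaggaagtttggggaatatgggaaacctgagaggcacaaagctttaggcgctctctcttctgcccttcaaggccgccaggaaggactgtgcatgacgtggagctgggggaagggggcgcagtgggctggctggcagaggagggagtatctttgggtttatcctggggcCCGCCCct
Adamts1: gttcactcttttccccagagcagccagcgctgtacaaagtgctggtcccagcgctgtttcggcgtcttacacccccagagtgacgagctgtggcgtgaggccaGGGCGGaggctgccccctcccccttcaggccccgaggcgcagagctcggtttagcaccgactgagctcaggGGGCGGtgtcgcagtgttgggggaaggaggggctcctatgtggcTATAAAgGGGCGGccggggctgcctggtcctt
The motifs were the TATA box TATAAA, the CCAAT box CCAAT, the GC box GGGCGG and the AP-1 element TGANTCA, each on both strands. Timp2 held 1 GC box, 37 to 32 bases before the start, and 1 CCAAT box. Mmp14 held 2 GC boxes within the last 19 bases, the first overlapping by 1 base with the nearer of its 2 CCAAT boxes. Both CCAAT boxes of Mmp14 lay on the opposite strand. Timp1 had 1 CCAAT box and 1 GC box, both on the opposite strand, the latter 8 to 3 bases before the start. None of these 3 windows held TATAAA, which in Adamts1 stood 32 to 27 bases before the start beside 3 GC boxes. No match to TGANTCA was found in these 4 windows. Of the 22 member genes with a window, 16 held a GC box, 8 a CCAAT box, 3 a TATA box and 2 an AP-1 element; among 8827 genes of the table with a window the shares were 63.4%, 40.7%, 8.4% and 5.5%, and over all 32851 windows 32.7%, 33.8%, 12.4% and 6.7%. These matches describe the letters and are no evidence of binding.

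Most members read lower in the Blnc1 arrays, by small amounts. Of the 33 genes 26 had a negative log2 fold change and 7 a positive one, with a median of -0.21 and a range of -0.62 to 0.35; among all genes 48.4% were negative and the median was 0.0073. Both Blnc1 arrays lay below both vector arrays for 20 members, against 24.9% of all genes, and above them for 2, against 28.3%; the groups overlapped for the other 11. An unadjusted p under 0.05 was reached by 17 members in the lower direction, against 9.08% of all genes, and by 1 in the higher direction, against 11.7%. After Benjamini-Hochberg adjustment over all probe sets only Timp2 passed, as a fall, against 0.366% of all genes that fell, and none rose, against 0.86% of all genes. At an adjusted p of 0.10 the lower count was 5 (Timp2, Adamts12, Mmp14, Adam12 and Mmp2), against 1.99% of all genes. The 95% interval of the log2 fold change lay below 0 for 17 members, above it for Mmp9 and included it for 15, with standard errors from 0.075 to 0.17. These intervals come from the same limma fit, so those without 0 repeat the count at an unadjusted p under 0.05. By family the medians were -0.55 for the TIMPs, -0.25 for the ADAMTS-like genes, -0.21 for the ADAMTS proteases, -0.13 for the ADAMs and -0.077 for the MMPs.

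**Figure D1:**
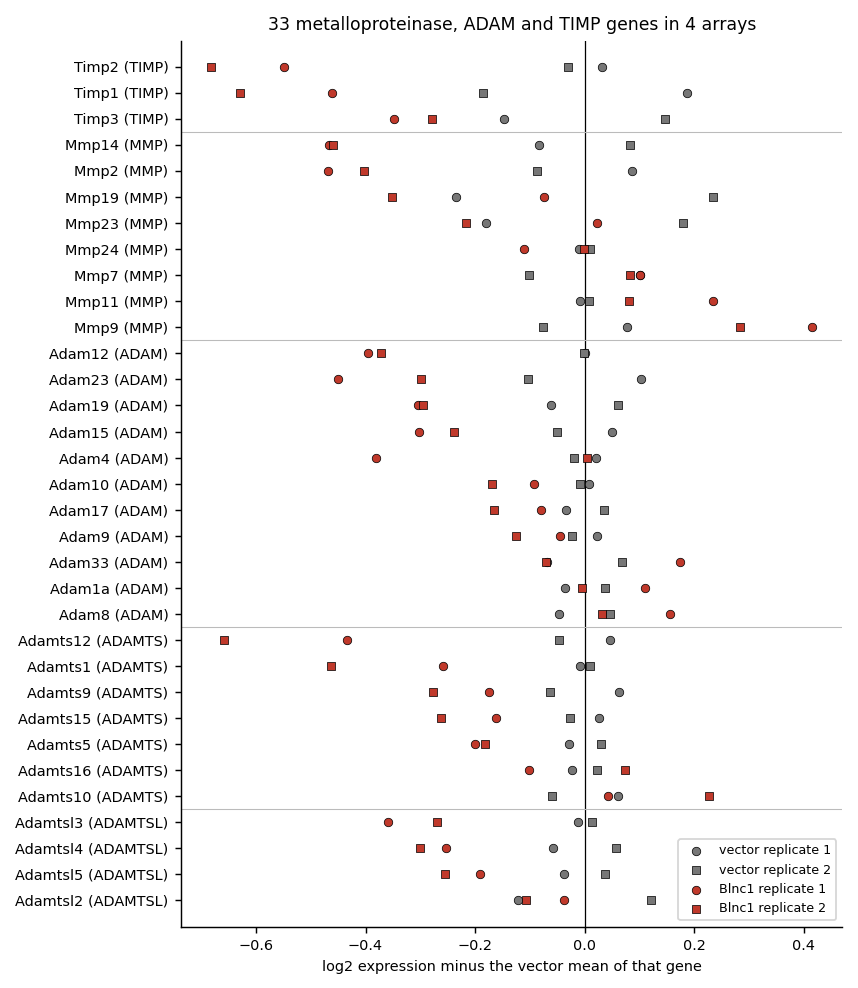
Log2 expression of each of the 33 genes on each array, minus that gene's vector mean, with vector arrays in grey and Blnc1 arrays in red (circles, replicate 1; squares, replicate 2) and genes grouped by family. Both red symbols lie left of both grey ones for 20 genes, including all 3 TIMPs, and right of them for Mmp9 and Mmp11.

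The members were also divided at the median probe set level by their mean over the 4 arrays, as a description. The 14 members above it were negative and had both Blnc1 arrays below both vector arrays, against 28.7% of genes above that level; their median log2 fold change was -0.31, where all genes of that kind had a median of 0.0071. Timp3, at a mean of 6.01, stood above the level only through its vector arrays, as both Blnc1 arrays lay below it, so its own difference helped to place it. The other members above the level had both group means above it. Of the 19 members below it 12 were negative, with a median of -0.072, and 6 had both Blnc1 arrays lower, against 19.2% of genes there. Both Blnc1 arrays were higher for 2 of them, against 28.3% of all genes at any level.

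**Figure D2:**
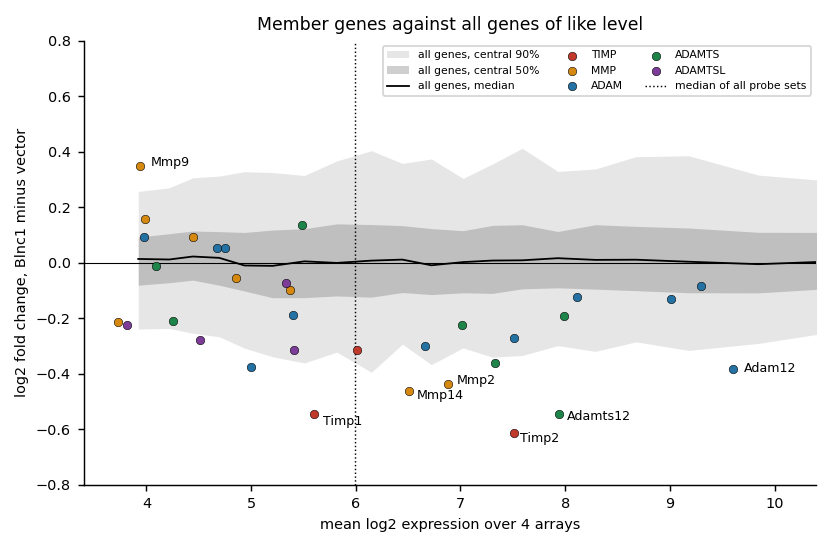
Log2 fold change (Blnc1 minus vector) of each member against its mean log2 expression over 4 arrays, coloured by family. Grey bands give the central 50% and 90% of all genes in 20 level bins (between bin medians) and the dotted line the median probe set level (5.997); the 14 members to its right lie below 0, Timp3 being next to the line.

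All 3 measured inhibitors were lower in the Blnc1 arrays. Timp2 read 7.85 and 7.79 with vector and 7.27 and 7.14 with Blnc1, so that the groups were 0.52 apart at their nearest. It fell 1.53-fold (log2 fold change -0.62 ± 0.086 SE, 95% interval -0.83 to -0.40, limma adjusted p = 0.0479). This call lay close to the threshold: the limma adjusted p was 0.0517 with a robust variance prior and 0.115 to 0.172 when any 1 of the 4 arrays was left out, with log2 fold changes between -0.68 and -0.55. The other 3 probe sets of Timp2 stood at -0.51, -0.35 and -0.17, each with both Blnc1 arrays lower, and none of them passed; the mean of the 4 was -0.41. Timp1, an inducible inhibitor of most secreted MMPs, read 6.06 and 5.69 with vector and 5.41 and 5.25 with Blnc1. The groups did not overlap, but the vector arrays were 0.37 apart and the gene did not pass (-0.55 ± 0.14 SE, limma adjusted p = 0.130), and without the higher vector array the difference was -0.36. Timp3, the inhibitor that stays bound to the matrix and also blocks ADAM17, read 6.02 and 6.31 against 5.82 and 5.89 (-0.31 ± 0.12 SE, limma adjusted p = 0.223). Without the higher vector array the log2 fold change of Timp3 was -0.17 and without the other it was -0.46, and its further probe sets stood at -0.57 and -0.42.

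Both proteases of the same activation complex read lower with Blnc1. Mmp14 read 6.65 and 6.82 with vector and 6.27 and 6.28 with Blnc1 (-0.46 ± 0.089 SE, limma adjusted p = 0.0805). Mmp2, the gelatinase that cuts type IV collagen and denatured collagen, read 7.19 and 7.02 against 6.63 and 6.70 (-0.44 ± 0.092 SE, limma adjusted p = 0.0930). In both genes the arrays of each group lay closer to each other than to those of the other group, and neither passed the test. Their 95% intervals, -0.68 to -0.24 and -0.66 to -0.21, overlapped that of Timp2.

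**Figure D3:**
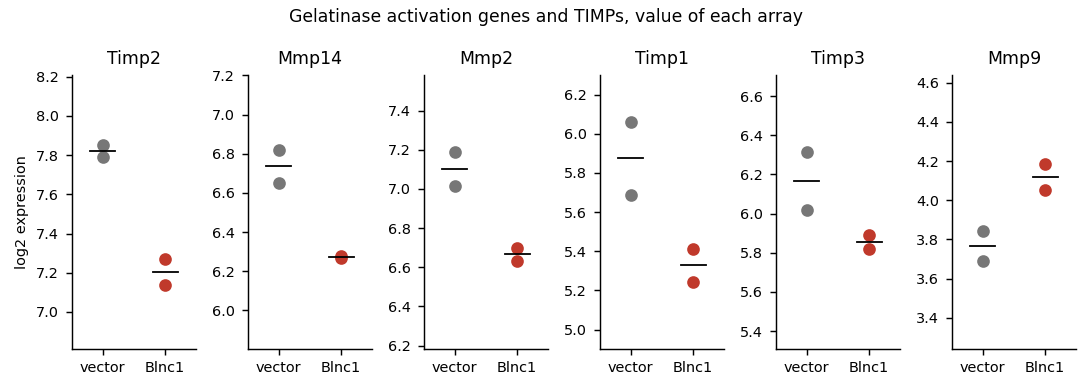
Log2 expression on each array of Timp2, Mmp14, Mmp2, Timp1, Timp3 and Mmp9, with points for arrays and bars for group means of 2; each axis spans 1.4 log2 units around its own gene. The Blnc1 points lie below the vector points for all genes shown but Mmp9.

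The other MMPs were dim. Mmp9, the second gelatinase, was the member with the highest positive value, reading 3.84 and 3.69 with vector and 4.18 and 4.05 with Blnc1 (0.35 ± 0.095 SE, limma adjusted p = 0.140). Its sign was thus opposite to that of Mmp2, at a level below the median probe set. Neutrophils and macrophages are known sources of MMP9: the summed unlogged values of the macrophage markers were 59.8 to 62.1 in the vector and 63.9 to 64.7 in the Blnc1 arrays, and those of the neutrophil markers 53.9 in both vector arrays and 53.2 to 55.1. These markers were dim too, with mean levels of 4.22 to 4.65 (macrophage) and 4.23 to 5.13 (neutrophil). Each marker of both kinds, read on its own, overlapped between the groups. The part of these cells in the value of Mmp9 was not tested. Mmp11, stromelysin 3, stood at 0.16 ± 0.087 (SE) with both Blnc1 arrays higher (3.90 and 3.92 with vector against 4.15 and 3.99), and without Blnc1 replicate 1 its value was 0.082. The groups overlapped for Mmp7 (matrilysin, 0.092), Mmp24, a membrane-type enzyme (-0.056, with a further probe set of nearly the same level at -0.24 and both Blnc1 arrays lower there), Mmp23 (-0.097) and Mmp19 (-0.21). No probe set with 1 gene symbol read Mmp3, Mmp12, Mmp13, Mmp15, Timp4, Adamts2 or Adamts4, which were not analysed here.

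Among the 8 ADAMs known as active proteases 6 had both Blnc1 arrays lower, against 24.9% of all genes, with a median of -0.13 for the 8, and none passed. Adam12, also called meltrin alpha and active in mesenchymal cells, read 9.80 and 9.80 with vector and 9.40 and 9.42 with Blnc1 (-0.38 ± 0.075 SE, limma adjusted p = 0.0824). Its replicates differed by less than 0.03, and its further probe set stood at -0.66 ± 0.13 (SE). Adam19, meltrin beta, read 6.75 and 6.88 against 6.51 and 6.52 (-0.30 ± 0.083 SE), while its dim further probe set stood at -0.0083 and the mean of both at -0.15. Adam15 read 7.69 and 7.59 against 7.34 and 7.41 (-0.27 ± 0.082 SE) on a probe set whose probes may also bind other transcripts, and its 2 dimmer probe sets stood at 0.035 and -0.10, the mean of the 3 being -0.11.

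The broad sheddases Adam10, Adam17 and Adam9 did not pass the test either. Adam10, which releases the outer part of Notch receptors, read 9.08 and 9.07 with vector and 8.98 and 8.91 with Blnc1 (-0.13, 95% interval -0.32 to 0.06), and its further probe set stood at -0.21. Adam17, the enzyme that frees TNF and ligands of the EGF receptor, read 8.14 and 8.21 against 8.09 and 8.01 (-0.12, 95% interval -0.32 to 0.08). Its further probe sets stood at -0.030 and, on the dimmest, at 0.21, and the mean of its probe sets turned to 0.021. Without Blnc1 replicate 2 its value was -0.080. Adam9 read 9.37 and 9.32 against 9.30 and 9.22 (-0.085, 95% interval -0.28 to 0.11), and -0.045 without Blnc1 replicate 2. These intervals include no change and do not show that it was absent. The dim Adam8 (0.093) and Adam33 (0.052) overlapped between the groups. Adam23, a membrane protein without protease activity, read 5.29 and 5.08 against 4.73 and 4.89 (-0.37 ± 0.11 SE, limma adjusted p = 0.149), while the testis genes Adam1a (0.053) and Adam4 (-0.19) overlapped.

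Adamts12, a protease of cartilage oligomeric matrix protein, was next to Timp2 in the size of its p. It read 8.26 and 8.16 with vector and 7.78 and 7.55 with Blnc1 (-0.55 ± 0.10 SE, limma adjusted p = 0.0775). All 4 measured proteoglycan-cutting members had both Blnc1 arrays lower, against 24.9% of all genes, and none passed. Adamts1, which cuts versican, read 7.50 and 7.52 against 7.25 and 7.05 (-0.36 ± 0.096 SE, limma adjusted p = 0.135). Adamts9 read 7.19 and 7.06 against 6.95 and 6.85 (-0.23 ± 0.088 SE), and the aggrecanase gene Adamts5 read 8.06 and 8.12 against 7.89 and 7.90 (-0.19 ± 0.077 SE). The dim Adamts15 stood at -0.21 ± 0.082 (SE). A further probe set of Adamts5 with nearly the same mean level had a value of -0.022, its replicates being wider apart. Another of Adamts5 stood at -0.34, with both Blnc1 arrays lower. Those of Adamts9 stood at -0.50, with both Blnc1 arrays lower, and at -0.035, with the groups overlapping. Adamts10 (0.14) and Adamts16 (-0.013) overlapped between groups.

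All 4 ADAMTS-like genes lay below the median probe set level and were negative. Adamtsl3 read 5.55 and 5.58 with vector and 5.21 and 5.30 with Blnc1 (-0.31 ± 0.079 SE, limma adjusted p = 0.126). Adamtsl4, whose product binds fibrillin microfibrils, stood at -0.28 ± 0.083 and Adamtsl5 at -0.22 ± 0.080 (SE), both with separate groups. Adamtsl2 overlapped, at -0.072.

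Further probe sets gave a second reading for 12 of the 33 genes. Of these 19 probe sets 17 had the sign of the probe set used and none passed the test. Both Blnc1 arrays were lower for 11, against 24% of all probe sets, and higher for 1, against 28.3% of all genes. The 2 with the opposite sign belonged to Adam15 and Adam17 and were dim.

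**Figure D4:**
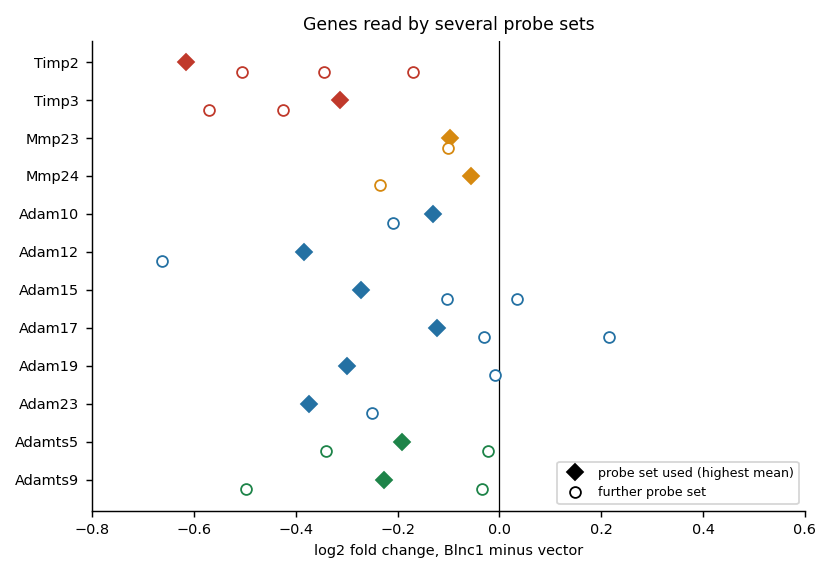
Log2 fold change (Blnc1 minus vector) of every probe set of the 12 members read by several, with filled diamonds for the probe set used and open circles for the others. All 4 probe sets of Timp2 and all 3 of Timp3 lie below 0, while Adam15 and Adam17 have 1 probe set each above it.

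Genes that act with these proteases were counted from lists of activators, partners and substrates. Of 21 measured collagens and other matrix substrates of MMPs 3 fell and none rose, against 0.366% and 0.86% of all genes. The median of the list was -0.42 and 15 were negative, against 48.4% of all genes. Both Blnc1 arrays were lower for 15 of the list, against 24.9% of all genes, and higher for 4, against 28.3%. The higher ones were Col4a5 (0.32), Lamb2 (0.30), Eln (0.28) and Col14a1 (0.12), named after their values were seen, and they did not pass. Those that fell were Col8a1 (-0.69 ± 0.087 SE, limma adjusted p = 0.0391), Col6a2 (-0.62 ± 0.079, 0.0406) and the type IV chain Col4a2 (-0.56 ± 0.080, 0.0495), none of which passed when any 1 array was left out (limma adjusted p 0.0840 to 0.175). The limma adjusted p of Col4a2 was also 0.0526 with a robust variance prior and 0.0530 after repeated quantile normalization. In the other lists no gene passed. Of 9 ADAMTS substrates and microfibril partners 7 were negative (median -0.16), with the proteoglycans Bgn at -0.51 ± 0.085 and Vcan, versican, at -0.51 ± 0.087 (SE). Both Blnc1 arrays were lower for 5 of these 9 and higher for 1, against 24.9% and 28.3% of all genes. The higher one was Ltbp2 (0.44), also named after its value was seen. Of 11 activators and surface regulators 9 were negative (median -0.14). Pcolce, which enhances procollagen processing, stood at -0.46 ± 0.079 (SE), whereas Bsg, a membrane protein known as an inducer of MMPs, stood at 0.71 ± 0.14 (SE, limma adjusted p = 0.0843) with 10.36 and 10.70 in the vector and 11.13 and 11.35 in the Blnc1 arrays. Plasminogen activation genes had a median of -0.068 (5 measured, 4 negative), Plat standing at -0.24 and Plgrkt at 0.10. The 7 partners of Adam10 and Adam17 had a median of 0.014, with Tspan5 at -0.25 and Rhbdf1 at -0.22. The 21 shed substrates had a median of -0.10 (15 negative), with Alcam at -0.58 and Dlk1 at -0.42. Both Blnc1 arrays were lower for 8 of them and higher for 4, against 24.9% and 28.3% of all genes. The higher ones were Tgfa (0.47), L1cam (0.39), Cdh2 (0.18) and Notch1 (0.12), named after their values were seen. The 11 cathepsins and other matrix proteases had a median of -0.11 (7 negative), with Fap at -0.38 and Ctsl at 0.26.

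**Figure D5:**
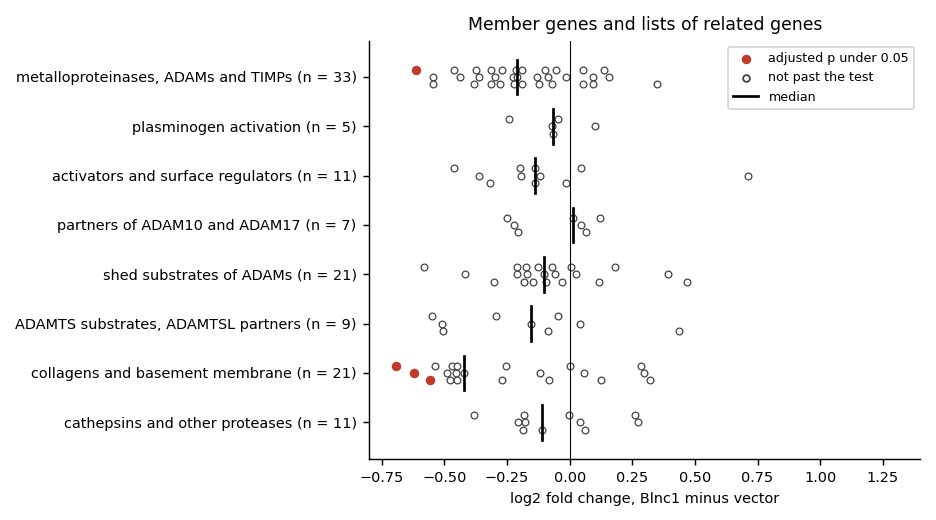
Log2 fold change (Blnc1 minus vector) of the 33 members and of the genes of 7 related lists; each point is a gene, red points passed a limma adjusted p of 0.05, and bars mark medians. The members' median is -0.21 and that of the collagen and basement membrane list -0.42, while the partners of Adam10 and Adam17 centre at 0.014.

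Markers of fibroblast-like cells were also read. All 6 measured preadipocyte and fibroblast markers were negative (median -0.44), 5 with both Blnc1 arrays lower, against 24.9% of all genes. Pdgfra overlapped between the groups (-0.093). Only Sfrp2 passed (-0.82 ± 0.11 SE, limma adjusted p = 0.0455, or 0.0862 to 0.159 when any 1 array was left out), against 0.366% of all genes that fell. The sum of the markers' unlogged values was 412 to 469 in the vector and 307 to 309 in the Blnc1 arrays. Among them Dlk1 is also one of the shed substrates and Col1a1 one of the matrix substrates counted above. Acta2, the smooth muscle marker measured, stood at -0.30 ± 0.075 (SE). The part of these cells or genes in the members' values was not tested.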

How the data were processed

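Total RNA from 4 mouse brown adipocyte samples (2 vector, 2 Blnc1) was labelled with biotin and hybridised to 1-colour Affymetrix arrays, per the labels' protocols. The authors deposited log2 expression values per probe set; per the submitters' processing notes RMA, affy and limma were used, without versions given. The log2 scale was read from the range of 2.70 to 13.3. Precision is limited by the small number of arrays.

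The groups were compared with limma 3.58.1 in R 4.3.3 (lmFit, eBayes, two-sided, no covariate or level filter), with Benjamini-Hochberg adjustment over 23599 probe sets, 35 control probe sets left out, and a threshold of 0.05. The fit was also run on simulated data, with variances drawn from its own prior and planted changes larger than any member's. That run does not cover changes of the members' size. Gene names came from GEO's annotation of the platform (16692 with 1 gene symbol, 372 with several, 6535 with none); the Entrez ID of all 33 members was found in the RefSeq table (GRCm38.p6).

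Members, role classes and related lists were chosen with earlier results of these data known. Lists are described by counts and medians, without a set test. Genes named were the members, by role, the list genes past the threshold and the 2 of each related list with the smallest p. Some list genes that were higher with Blnc1 were also named, after their values were seen. Alternatives were other variance priors, normalizations, probe set filters and summaries, thresholds, a block for the replicate number, and each array left out in turn.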

Additional observations from a re-analysis of the deposited data

How the results depend on the processing

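The members' median stayed negative under every alternative run, and their calls varied. Part of this was fixed in advance. The variance priors, the thresholds and the block of this balanced design cannot change a log2 fold change. Leaving out dim probe sets repeats the division at the median probe set level. The number of probe sets past the threshold was 219, but 2174 with an intensity trend in the variance prior, 1020 without dim probe sets, 467 genes with probe sets averaged per gene, 958 at an adjusted p of 0.10, 3 at 0.01 and 3 to 38 without any 1 array. The number of members past it was 1 (Timp2), but 7 with the intensity trend (adding Adamts12, Mmp14, Adam12, Mmp2, Timp1 and Adamts1) and 5 each without dim probe sets, with probe sets averaged per gene and at 0.10 (Timp2, Adamts12, Mmp14, Adam12 and Mmp2). It was 0 with a robust prior, at 0.01, and without any 1 array. With the replicate number as a block 30 probe sets and 0 members passed, and the limma adjusted p of Timp2 was 0.0825. The labels do not say whether same-numbered arrays share more than a number. The correlation of their deviations was 0.089, which cannot decide this. Without dim probe sets 14 members were left, 14 of them negative, with a median of -0.31. Without any 1 array 23 to 27 members were negative and their median lay between -0.24 and -0.17. Of 33 members 24 kept their sign under all alternatives. The mean of its probe sets put Adam17 at 0.021. Leaving out 1 array gave ranges across 0 for Mmp19 (-0.45 to 0.021), Mmp23 (-0.28 to 0.082), Mmp7 (-0.010 to 0.19), Adam33 (-0.071 to 0.18), Adam1a (-0.0048 to 0.11), Adam4 (-0.38 to 0.0038), Adamts16 (-0.10 to 0.074) and Adamtsl2 (-0.19 to 0.049), all dim. The cause of these changes was not tested.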
